A study of Mus musculus with 6 samples.

Results

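The 187 genes described here are those whose name on the array is Zfp followed by a number, out of 14993 genes tested in the series. The name pattern covers 238 gene names and 459 probes on the array, and 284 of those probes were kept because the scanner software marked them as well above background on both arrays of 1 or more groups. Zfp36, the mRNA decay factor tristetraprolin, and Zfp42, the pluripotency marker Rex1, were left out by the rule. Where several probes of a gene remained, the one with the highest mean log2 signal over the 6 arrays was used. The members were thus chosen by 2 measured values, the detection flags and the brightness of the probes, which are given only as a description.

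Zinc finger proteins of the Zfp series mostly carry tandem C2H2 fingers, in which a zinc ion holds a short loop that reads a few bases of DNA or, in some members, binds RNA. The largest subfamily carries a KRAB domain, which recruits TRIM28 (KAP1) and, through it, the H3K9 methyltransferase SETDB1, HP1 proteins and the NuRD complex. KRAB members silence retroelements and keep imprinted loci methylated in embryonic stem (ES) cells and the early embryo, while members without a KRAB domain include regulators of pluripotency, organ development, RNA processing and the cell cycle.

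Total RNA or immunoprecipitated (IP) RNA was labelled with Cy3 and hybridised to 1-colour Agilent mouse arrays. All 6 samples came from one kind of culture: primordial germ cells generated in vitro from Dazl-GFP-V5 ES cells, of line V6.5 and of mixed C57BL/6 and 129SV strain, after feeder depletion and 12 days of differentiation. All were lysed for RNA-IP with UV crosslinking. The 3 groups were total input RNA with no antibody, RNA bound by an anti-PABP1 antibody, which the labels call the IP control, and RNA bound by an anti-GFP antibody, each with 2 arrays. PABP1 is the cytoplasmic poly(A)-binding protein, and DAZL is a germ cell RNA-binding protein that carries the tag here. Whether replicates were separate cultures is not in the labels. The p-values then reflect only how far these arrays differ, which may be technical. No IP from cells without the tag was analysed here, so an RNA recovered by either antibody is described as higher or lower in that IP, not as bound. The arrays lay on 2 slides: slide 2 held GFP IP replicate 1 with PABP1 IP replicate 2, and slide 1 held the other 4.

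Between 41.5% and 52.6% of the spots of an array were well above background. Pearson correlations over genes ranged from 0.981 to 0.992 between replicates and from 0.872 to 0.934 between arrays of different groups. Dazl stood 3.80 ± 0.26 above input on the log2 scale in the GFP IP (adjusted p = 0.00144, limma). Pabpc1, whose mRNA encodes PABP1, differed by -0.14 ± 0.69 between PABP1 IP and input (adjusted p = 0.878, limma). With the slide as a block its difference was 0.62 ± 0.17 and passed the threshold (adjusted p = 0.0302, limma). In the check of the labelled cell type, 7 of 10 primordial germ cell markers and 6 of 6 pluripotent cell markers were measured. Ddx4 was not kept, and the names Prdm14 and Tfap2c were not matched on the array. Markers of other cells were present as well: 8 of 9 cardiac and smooth muscle markers and 5 of 5 fibroblast markers were measured, while of 5 visceral endoderm markers only Amn was, and Afp, Ttr, Apoa1 and Cubn were well above background on no array. The mean log2 value of the cardiac and smooth muscle markers was 0.61 to 0.68 on the input arrays, 0.47 to 0.73 in the PABP1 IP and -0.98 to -0.52 in the GFP IP. That of the fibroblast markers was 3.22 to 3.87, 3.67 to 3.69 and 1.45 to 2.59. The germ cell markers stood at 1.02 to 1.19 in input, 1.10 to 1.25 in the PABP1 IP and 2.22 to 2.39 in the GFP IP, and the pluripotent cell markers at 3.45 to 3.50, 3.88 to 3.91 and 4.22 to 4.43. The 3 of 5 neural markers measured stood at 1.10 to 1.22, -0.16 to 0.59 and 0.58 to 0.83. The germ cell markers were mixed in the GFP IP. Of the 7, 4 were called above input, the tagged gene Dazl included, and 2 below it, Nanos3 and Ifitm3. Their summed unlogged signals for input, PABP1 IP and GFP IP were 46.5 to 51.9, 130 to 133 and 82.4 to 103. Those of the pluripotent cell markers were 114 to 119, 248 to 273 and 134 to 163. By sums both sets thus stood highest in the PABP1 IP, unlike by mean log2 value. The part of these markers in the differences below was not tested. All groups came from one kind of culture, so a difference between an IP and input describes recovered RNA. It does not measure the number of cells of a type or their RNA per cell. The lysates were bulk samples, so the cell type that an RNA came from cannot be told.

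In the text, a level is the log2 signal of a probe minus the 75th percentile of the log2 signals on its array, so a probe at 0 sits at that percentile. A difference is between the means of 2 arrays each, ± its standard error from the limma fit over all 14993 genes (n = 2 arrays per group). Genes are called higher or lower where limma's p-value, adjusted by Benjamini and Hochberg's method over all genes, is under 0.05. The comparisons share arrays: both IPs are set against the same input arrays, and the GFP IP against the PABP1 IP uses the arrays of both.

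As a family the Zfp genes followed the rest of the transcriptome in the GFP IP and lay below it in the PABP1 IP. The median Zfp difference between GFP IP and input was -0.51, against -0.50 for all genes, a distance of -0.0066. Between PABP1 IP and input the median was -0.49 against 0.12 for all genes, so the Zfp median lay 0.61 below (distance -0.61, SD 0.0684 over the 4 pairs of arrays). Between GFP IP and PABP1 IP the Zfp median was -0.0198 against -0.58, which placed it 0.56 above all genes (SD 0.201 over 4 pairs). These distances do not depend on how arrays are scaled by a single number, whereas the sign of a median does.

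**Figure D1:**
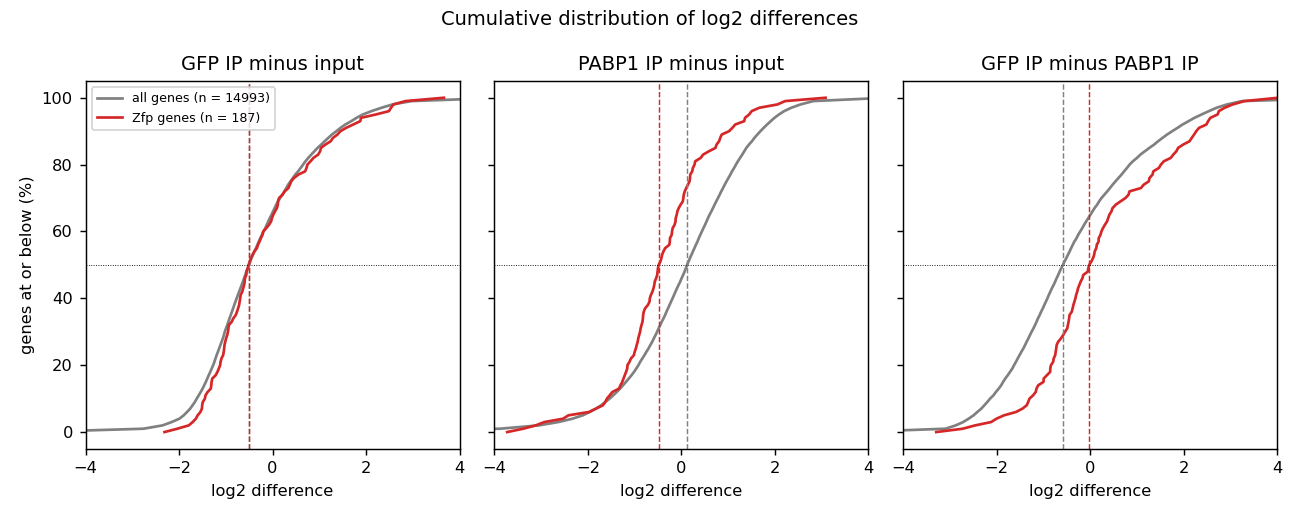
Cumulative share of genes (vertical axis, %) at or below each log2 difference (horizontal axis, drawn from -4 to 4) for the 187 Zfp genes (red) and all 14993 genes (grey), with medians as dashed lines. The curves lie together for GFP IP minus input, while the red curve lies to the left for PABP1 IP minus input (medians -0.49 and 0.12) and to the right for GFP IP minus PABP1 IP (-0.0198 and -0.58). With spike-in scaling both curves of a panel move together, by 1.00, 2.28 and -1.27 in the 3 panels.

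In counts, 36 Zfp genes were higher and 70 lower in the GFP IP than in input, and 81 did not pass the threshold. These are 19.3% and 37.4% of the 187, beside 18.5% and 36.6% of all genes (55.0% in either direction), so the shares lay near the background. Against input, the PABP1 IP had 25 higher and 76 lower, 13.4% and 40.6%, beside 30.0% and 23.8% of all genes (53.9% in either direction). Between the IPs 56 were higher in the GFP IP and 46 higher in the PABP1 IP, 29.9% and 24.6%, beside 22.3% and 41.3% (63.6% in either direction). The split of calls depended on the scaling: with arrays scaled to the 8 spike-in probes, the lower calls went from 70 to 0 in the GFP IP and from 76 to 3 in the PABP1 IP, where 153 Zfp genes (81.8%, beside 85.1% of all genes) were then higher. Between the IPs spike-in scaling gave 16 higher and 106 lower, 8.56% and 56.7% beside 4.90% and 68.1% of all genes. Scaled to the median of all probes, 47 were higher and 21 lower in the GFP IP than in input, 23 and 46 in the PABP1 IP, and 64 and 22 between the IPs. In shares these are 25.1% and 11.2%, 12.3% and 24.6%, and 34.2% and 11.8%, beside 24.2% and 11.6%, 31.0% and 17.0%, and 25.4% and 27.5% of all genes.

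The counts against input also rested on single input arrays. Without input replicate 1, 33 Zfp genes were lower in the GFP IP (17.6%, all genes 16.5%), 11 were higher in the PABP1 IP (5.88%, all genes 19.4%) and 40 lower (21.4%, all genes 14.6%). Without input replicate 2 these counts were 37, 16 and 36, or 19.8%, 8.56% and 19.3%, with 19.9%, 18.8% and 14.8% of all genes. The distance of the PABP1 median was -0.70 within slide 1. The distance between the IPs was 0.58 within slide 1 and 0.53 within slide 2. Both distances were smaller under some alternatives. With normexp background correction the PABP1 distance was -0.26 and the distance between the IPs 0.24, and with no filter on dim probes (238 Zfp names) they were -0.0537 and 0.18. With only probes well above background on all 6 arrays the PABP1 distance was -0.62.

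Detection differed between members, and it bears on these counts. Of the 187, 150 were well above background on all 6 arrays and 37 on fewer. On both arrays of a group, 182 were well above background in the GFP IP, 169 in the PABP1 IP and 158 in input. A further split shows how members entered: 11 passed the rule through the GFP IP alone, 3 through the PABP1 IP alone and 1 through input alone, and such a gene had to look higher there. Among the 150 on all 6 arrays, 27 were higher and 65 lower in the GFP IP than in input, 18.0% and 43.3% beside 18.8% and 41.1% of the 11784 genes detected on all 6. Against input, the PABP1 IP had 21 higher and 69 lower, 14.0% and 46.0% beside 31.4% and 25.8%. Between the IPs 42 were higher and 42 lower, 28.0% each, beside 22.5% and 44.2%.

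In the PABP1 IP the shares lay on the same side of the background among brighter and dimmer Zfp genes. The 93 brighter ones had 14 higher and 44 lower than input, 15.1% and 47.3%, where 35.8% and 26.7% of the 7984 genes above the same signal were called. The 94 dimmer ones had 11 and 32, 11.7% and 34.0%, where 23.4% and 20.6% of the 7009 genes at or below it were. The median differences were -0.52 and -0.34, and those of all genes in the same signal ranges, Zfp genes included, 0.17 and 0.0737.

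The Zfp genes that rose most in the GFP IP included regulators of fat and neuron development, a ubiquitin ligase and a cytoskeletal protein. Zfp516, a cofactor in brown fat differentiation, had levels of 3.78 and 3.64 in input, 3.12 and 3.03 in the PABP1 IP, and 6.33 and 6.20 in the GFP IP. Both GFP arrays thus stood above the other 4, and Zfp516 was 2.56 ± 0.16 higher than in input (5.90-fold, adjusted p = 0.00144) and 3.20 ± 0.16 higher than in the PABP1 IP (adjusted p = 0.000462). Its other 2 probes gave 2.29 and 4.05 against input. Zfp278, now named Patz1, encodes a POZ domain transcription factor with an AT hook. Its levels were -1.90 and -1.68 in input, -0.82 and -1.06 in the PABP1 IP, and 1.28 and 1.22 in the GFP IP, where it was 3.04 ± 0.18 above input (8.23-fold, adjusted p = 0.00144). Its order was the same on every array: input lowest, PABP1 IP between, GFP IP highest.

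Zfp410, a transcription factor known for activating the NuRD gene Chd4, was flat across input (0.51 and 0.56) and the PABP1 IP (0.76 and 0.66). On the GFP arrays it stood at 3.09 and 2.96, which made it 2.49 ± 0.15 higher than in input (5.63-fold, adjusted p = 0.00144). Chd4 itself, on its own probe, was 1.96 ± 0.43 lower in the GFP IP than in input (log2 difference -1.96, adjusted p = 0.015). That call was lost without input replicate 1, without input replicate 2 or without GFP IP replicate 1. In the PABP1 IP Chd4 was lower than input by a larger difference, -3.63 ± 0.43 (adjusted p = 0.00211, limma). The part of Zfp410 in the values of Chd4 was not tested.

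Zfp185, a LIM domain protein of the actin cytoskeleton, had the largest rise of the family in the GFP IP. It was near the detection limit in input at -3.44 and -3.17, where 1 of 2 arrays was well above background, stood at -2.22 and -1.67 in the PABP1 IP, and reached 0.53 and 0.18 in the GFP IP. The difference from input was 3.67 ± 0.26 (adjusted p = 0.00144), while its other probe gave 0.91. Zfp364, now Rnf115, an E3 ubiquitin ligase, was higher than input in both IPs: 1.43 and 1.45 in input, 3.08 and 2.81 in the PABP1 IP (difference 1.51 ± 0.19, adjusted p = 0.00263), and 3.93 and 4.26 in the GFP IP (2.66 ± 0.19, adjusted p = 0.00151).

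The other leading genes of this kind, Zfp275, Zfp422, Zfp238, Zfp26 and Zfp251, lay between 2.24 and 2.81 above input. Zfp238, now Zbtb18, a repressor needed for cortical neuron development, was more variable than the rest, at 2.64 and 1.71 on the GFP arrays against -0.27 and -0.40 in input (2.51 ± 0.38, adjusted p = 0.00471). Zfp26 had no agreed direction over its probes: the brightest gave 2.49 ± 0.19, and the others 1.72, 0.92 and -1.43.

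Zfp57, the KRAB protein that keeps imprinted regions methylated, showed the largest fall of the family in the GFP IP. Its levels were 1.10 and 0.99 in input, 0.16 and -0.38 in the PABP1 IP, and -1.53 and -1.01 in the GFP IP. The 3 groups did not overlap, and the difference between GFP IP and input was -2.31 ± 0.27 (4.96-fold lower, adjusted p = 0.00272). It was also lower in the PABP1 IP than in input by a difference of -1.15 ± 0.27 (adjusted p = 0.0178), a call that was lost without input replicate 1, input replicate 2 or PABP1 IP replicate 2 (adjusted p 0.0674 to 0.0882). Spike-in scaling turned that PABP1 value to 1.12.

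The other large falls in the GFP IP were Zfp397, Zfp612, Zfp526, Zfp61, Zfp68, Zfp692, Zfp35, Zfp694 and Zfp27, between -2.16 and -1.55. Zfp61 illustrates a bright one: it fell from 3.74 and 3.66 in input to 1.94 and 1.97 (difference -1.75 ± 0.18, adjusted p = 0.00228), with 2.62 and 2.26 in the PABP1 IP. Other probes gave smaller falls: -0.63 for Zfp61, -0.62, -0.46 and -0.51 for Zfp35, and -0.48 for Zfp27. The median of all genes in this comparison was -0.50. Zfp397 and Zfp526 were each well above background on 1 of 2 GFP arrays. Zfp397 entered the set through input alone, so its direction follows from the detection rule. The Zfp397 call was lost without either input array or without GFP IP replicate 1 (adjusted p 0.113 to 0.132), and the Zfp526 call without either input array (adjusted p 0.0542). Cardiac, smooth muscle and fibroblast markers were lower in the GFP IP too, with 7 of 8 and 4 of 5 called lower than in input. These are 87.5% and 80.0%, beside 36.6% of all genes. The part of these markers in the falls of the Zfp genes was not tested. Under spike-in scaling the 10 leading falls in the GFP IP all stayed below 0, between -1.31 and -0.54, and 0 passed the threshold.

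**Figure D2:**
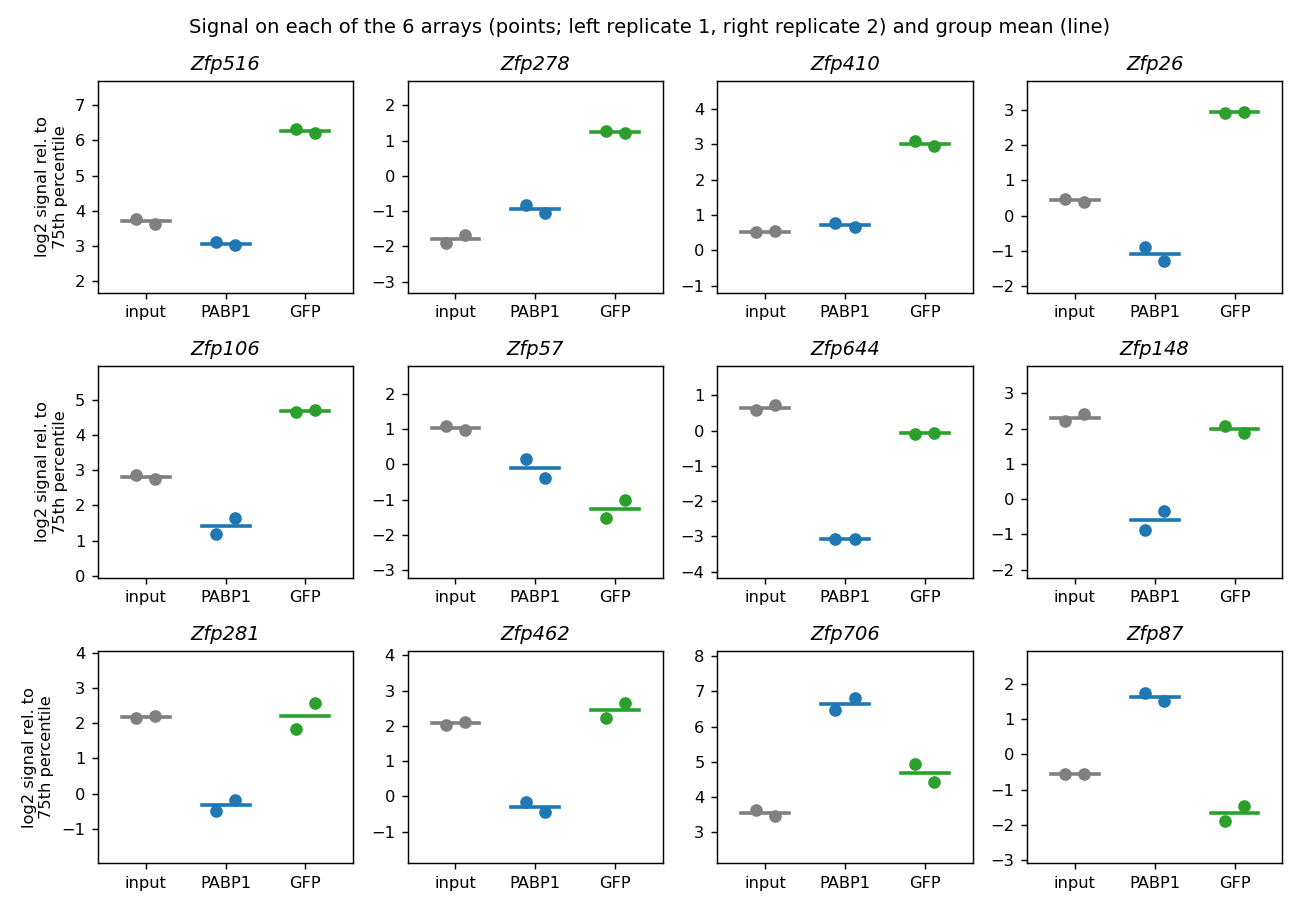
Level of 12 Zfp genes on each array (log2 signal relative to the array's 75th percentile, vertical axis, each panel spanning 6 units) in input (grey), PABP1 IP (blue) and GFP IP (green), with the group mean as a line. Zfp516, Zfp278, Zfp410, Zfp26 and Zfp106 stand highest in the GFP IP, Zfp644, Zfp148, Zfp281 and Zfp462 stand lowest in the PABP1 IP, and Zfp706 and Zfp87 stand highest in the PABP1 IP. Levels of different genes come from different probes and are not comparable.

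The Zfp genes lowest in the PABP1 IP included several chromatin and pluripotency regulators. Zfp462, a large nuclear protein needed for chromatin silencing in ES cells, had levels of 2.03 and 2.11 in input, 2.23 and 2.66 in the GFP IP, and -0.15 and -0.44 in the PABP1 IP. It was lower in the PABP1 IP than in input by a difference of -2.36 ± 0.21 (adjusted p = 0.00121), its other probe gave -2.63, and between GFP IP and input it differed by 0.38 ± 0.21 (adjusted p = 0.185). Zfp281, an ES cell factor that limits Nanog expression, had the same shape: 2.14 and 2.20 in input, 1.83 and 2.56 in the GFP IP, and -0.49 and -0.17 in the PABP1 IP (difference from input -2.50 ± 0.28, adjusted p = 0.0019). In both genes all 4 arrays of input and GFP IP lay above both PABP1 arrays.

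Zfp644, a partner of the H3K9 methyltransferases G9a and GLP, showed the largest fall in the PABP1 IP, from 0.58 and 0.72 in input to -3.08 and -3.07, with -0.09 and -0.08 in the GFP IP. The difference was -3.72 ± 0.15 (13.2-fold lower, adjusted p = 0.000855) on its brightest probe, but -0.26 and 0.03 on its other 2. Zfp148, the Krüppel-type factor ZBP-89, likewise went from 2.22 and 2.41 to -0.86 and -0.33 (-2.91 ± 0.24, adjusted p = 0.00102), while its other 3 probes gave -4.05, 0.58 and 0.72. For these genes the value is that of 1 probe, and where on the transcript each probe lies was not examined.

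The probe named Zfp469 on the array carries an accession that RefSeq assigns to Tnrc18, and Zfp291 is a RefSeq synonym of Scaper, a cytoplasmic regulator of cyclin A. Zfp469 fell from 1.57 and 1.77 in input to -1.87 and -1.73 in the PABP1 IP (-3.47 ± 0.23, adjusted p = 0.000904). Zfp291 fell from 2.27 and 2.25 to -0.38 and -0.21 (-2.55 ± 0.21, adjusted p = 0.00101), and its other probe gave -5.41.

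Zfp329 (-3.37 ± 0.24), Zfp612 (-3.27 ± 0.25) and Zfp292 (-2.44 ± 0.38) completed this group, of which Zfp612 and Zfp292 were well above background on 1 of 2 PABP1 arrays, together with 2 genes that were not well above background on either PABP1 array. Those 2 were Zfp536, a repressor of neuronal differentiation, at least 8.23-fold lower, and Zfp654, at least 5.39-fold lower than in input. Such a bound compares the brighter group's mean with the higher of the dim probe's own signal and the lowest signal among probes well above background. The other 2 probes of Zfp329 gave only -0.24 and -0.60. Under spike-in scaling the 10 leading falls in the PABP1 IP all stayed below 0, between -1.45 and -0.16, and 3 of them, Zfp644, Zfp469 and Zfp329, still passed the threshold.

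Fewer Zfp genes stood out upward in the PABP1 IP. Zfp706, which encodes a small zinc finger protein implicated in the exit of ES cells from self-renewal, rose from 3.65 and 3.46 in input to 6.47 and 6.81, with 4.95 and 4.42 in the GFP IP. It was 3.08 ± 0.25 higher in the PABP1 IP than in input (8.48-fold, adjusted p = 0.001), and its other probe gave 2.99. In the GFP IP it was 1.13 ± 0.25 higher than in input (adjusted p = 0.0141), a call that was lost without either input array or without GFP IP replicate 1 (adjusted p 0.0534 to 0.0779).

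Zfp87, Zfp580, Zfp672, Zfp637 and Zfp524 followed with rises of 1.46 to 2.17 in the PABP1 IP. Zfp87 was at -0.55 and -0.56 in input, 1.72 and 1.52 in the PABP1 IP, and -1.89 and -1.46 in the GFP IP, so that the IPs lay on opposite sides of input (PABP1 IP minus input 2.17 ± 0.20, adjusted p = 0.00127). Its other probe gave -0.62, with the sign turned. Zfp672 was at 1.43 and 1.54 in input, 3.68 and 3.38 in the PABP1 IP, and 0.39 and 0.65 in the GFP IP, also on both sides of input (2.05 ± 0.19 in the PABP1 IP, adjusted p = 0.00126).

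The other 3 leading rises in the PABP1 IP had wider errors or dimmer signals. Zfp386 was at least 2.76-fold and Zfp503 at least 1.91-fold higher in the PABP1 IP than in input, where neither was well above background. Zfp386 entered the set through the PABP1 IP alone, so its direction follows from the detection rule. Zfp689 was 1.50 ± 0.38 higher (adjusted p = 0.0228). Each call was lost without 1 or more single arrays. For Zfp386 these were input replicate 1 and either PABP1 IP array (adjusted p 0.0766 to 0.14), for Zfp503 input replicate 1 and PABP1 IP replicate 2 (0.066 to 0.0713), and for Zfp689 either input array and PABP1 IP replicate 2 (0.0699 to 0.107). Another Zfp386 probe gave -2.0, and Zfp503 was at -0.17 with normexp correction.

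Set directly against each other, and among genes well above background in both, the IPs differed most at Zfp26, Zfp106 and Zfp516 on the GFP side and at Zfp87, Zfp672 and Zfp60 on the PABP1 side. Zfp106, an RNA-binding protein needed by motor neurons and muscle, had levels of 2.87 and 2.74 in input, 1.18 and 1.64 in the PABP1 IP, and 4.66 and 4.71 in the GFP IP. Input lay between the IPs, and the IPs differed by 3.27 ± 0.21 (9.66-fold, adjusted p = 0.000462). Its other 3 probes gave 1.74, 1.98 and 2.75, all in the same direction. For Zfp26 the difference was 4.02 ± 0.19 (adjusted p = 0.000462), with 3.88, 2.78 and -1.14 from other probes.

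Zfp275 (2.93 ± 0.23), Zfp644 (2.99 ± 0.15), Zfp251 (2.83 ± 0.15), Zfp462 (2.74 ± 0.21) and Zfp238 (2.73 ± 0.38) followed on the GFP side, each with an adjusted p of at most 0.00228. Zfp295, now Zbtb21, and Zfp518 were not well above background on either PABP1 array and were at least 2.86-fold and 2.07-fold higher in the GFP IP. Both entered the set through the GFP IP alone, so this direction follows from the detection rule. On the PABP1 side Zfp60 was at 4.70 and 4.33 in the PABP1 IP, 1.77 and 1.89 in the GFP IP, and 3.17 and 3.14 in input (GFP IP minus PABP1 IP -2.68 ± 0.19, adjusted p = 0.000477), but its other probe gave 1.09.

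Zfp524, Zfp637, Zfp511 and Zfp688 were lower in the GFP IP than in the PABP1 IP by differences of -2.59 ± 0.17, -2.14 ± 0.16, -2.05 ± 0.16 and -1.88 ± 0.33. Zfp511 was bright on all 6 arrays: 4.06 and 4.03 in input, 5.48 and 5.45 in the PABP1 IP, and 3.54 and 3.29 in the GFP IP. Zfp618 (-2.10 ± 0.39, adjusted p = 0.0065) and Zfp386 (-2.41 ± 0.72, adjusted p = 0.0327) had wider errors. Zfp386 was well above background on 1 of 2 GFP arrays, and its call was lost without either PABP1 IP array or without GFP IP replicate 1 (adjusted p 0.0676 to 0.132).

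Among the 8 genes listed for imprinting and retroelement silencing, only Zfp57 and Zfp661 were kept. Both were lower than input in both IPs, as were 36.6% of all genes in the GFP IP and 23.8% in the PABP1 IP. Zfp661 was at -1.10 and -0.95 in input, -2.65 and -2.59 in the PABP1 IP, and -2.35 and -2.68 in the GFP IP. It was lower by differences of -1.59 ± 0.18 in the PABP1 IP (adjusted p = 0.00193) and -1.49 ± 0.18 in the GFP IP (adjusted p = 0.00293), with 0.10 ± 0.18 between the IPs (adjusted p = 0.644). Spike-in scaling turned the PABP1 value of Zfp661 to 0.69. In the authors' deposited group means, normalized to the median, Zfp661 stood above input in both IPs. Its log2 ratios there were 0.87 in the GFP IP and 0.60 in the PABP1 IP, and those of Zfp57 were -0.89 and 0.05. Zfp445, which also maintains imprints, was well above background on 2 arrays of different groups and so was not kept. The names Zfp568, Zfp809, Zfp819, Zfp932 and Zfp708 were not matched on the array.

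Of 16 listed regulators of pluripotency and chromatin, 15 were measured, and 1 was higher and 11 lower in the PABP1 IP than in input. These are 6.67% and 73.3%, beside 30.0% and 23.8% of all genes. Their median difference was -0.95, beside 0.12 for all genes and -0.49 for all Zfp genes. In the GFP IP 2 were higher and 6 lower than in input, 13.3% and 40.0% beside 18.5% and 36.6%, with a median of -0.39 beside -0.50 for all genes. Between the IPs 7 were higher and 2 lower in the GFP IP, 46.7% and 13.3% beside 22.3% and 41.3%, with a median of 0.62 beside -0.58. With spike-in scaling the PABP1 values of Zfp143, Zfp217, Zfp131, Zfp335, Zfp532, Zfp592 and Zfp687 turned positive, from 0.63 to 1.50.

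These regulators fell into distinct shapes. On their brightest probes, Zfp281, Zfp148, Zfp462 and Zfp644 were 2.53 to 2.99 higher in the GFP IP than in the PABP1 IP. On the same probes their differences between GFP IP and input ran from -0.73 to 0.38. Of these differences only that of Zfp644 passed (-0.73 ± 0.15, adjusted p = 0.0118), and its call was lost without either input array or GFP IP replicate 1. Other probes gave differences between GFP IP and input of 1.45 and 1.22 for Zfp644. They gave 4.02, 2.31 and -0.17 for Zfp148, and -0.40 for Zfp462. Zfp335, a subunit linked to H3K4 methyltransferase complexes, and Zfp592 were lower than input in both IPs: Zfp592 went from 4.73 and 4.52 in input to 3.13 and 2.83 in the PABP1 IP (-1.65 ± 0.18, adjusted p = 0.0018) and 3.13 and 3.1 in the GFP IP (-1.51 ± 0.18, adjusted p = 0.00288). Zfp335 gave -1.22 ± 0.17 and -1.54 ± 0.17 in the PABP1 IP and GFP IP, and its other probe -2.97 and -2.58.

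Zfp532, Zfp592 and Zfp687 are relatives that act with the chromatin reader ZMYND8, and they did not move together. Zfp532 was at -0.50 and -0.90 in input, -1.70 and -1.30 in the PABP1 IP, and 1.22 and 0.82 in the GFP IP. It was 1.72 ± 0.26 above input in the GFP IP (adjusted p = 0.00465), where Zfp592 and Zfp687 (-1.09 ± 0.22, adjusted p = 0.0113) were lower. In the PABP1 IP Zfp532 and Zfp687 were lower than input by differences of -0.80 ± 0.26 and -0.95 ± 0.22. The PABP1 call of Zfp532 was lost without any 1 of the 4 arrays of that comparison (adjusted p 0.0558 to 0.212), and the PABP1 call of Zfp687 without either input array or PABP1 IP replicate 1 (0.0686 to 0.0902). The GFP call of Zfp687 was lost without either input array (0.0567 to 0.0715).

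Of the other regulators, Zfp410 has been described above. Zfp296, a partner of pluripotency factors in reprogramming, was bright in input at 5.65 and 5.52 and stood at 5.10 and 5.0 in the PABP1 IP and 4.57 and 4.27 in the GFP IP (GFP IP minus input -1.16 ± 0.18, adjusted p = 0.005). Zfp206, now Zscan10, an ES cell transcription factor, passed in no comparison, with -0.06 ± 0.32 in the GFP IP and -0.68 ± 0.32 in the PABP1 IP. Zfp217, a component of LSD1 and CoREST complexes, was lower in the PABP1 IP by a difference of -1.30 ± 0.22 (adjusted p = 0.00571). The single rise in the PABP1 IP was Zfp384 (0.73 ± 0.15, adjusted p = 0.012), whose other 2 probes gave 0.12 and 0.00. The PABP1 calls of Zfp143 (-0.78 ± 0.15), Zfp131 (-0.82 ± 0.18) and Zfp384 were lost without either input array, and that of Zfp131 also without PABP1 IP replicate 1 (adjusted p 0.0527 to 0.0955 over the 3 genes).

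**Figure D3:**
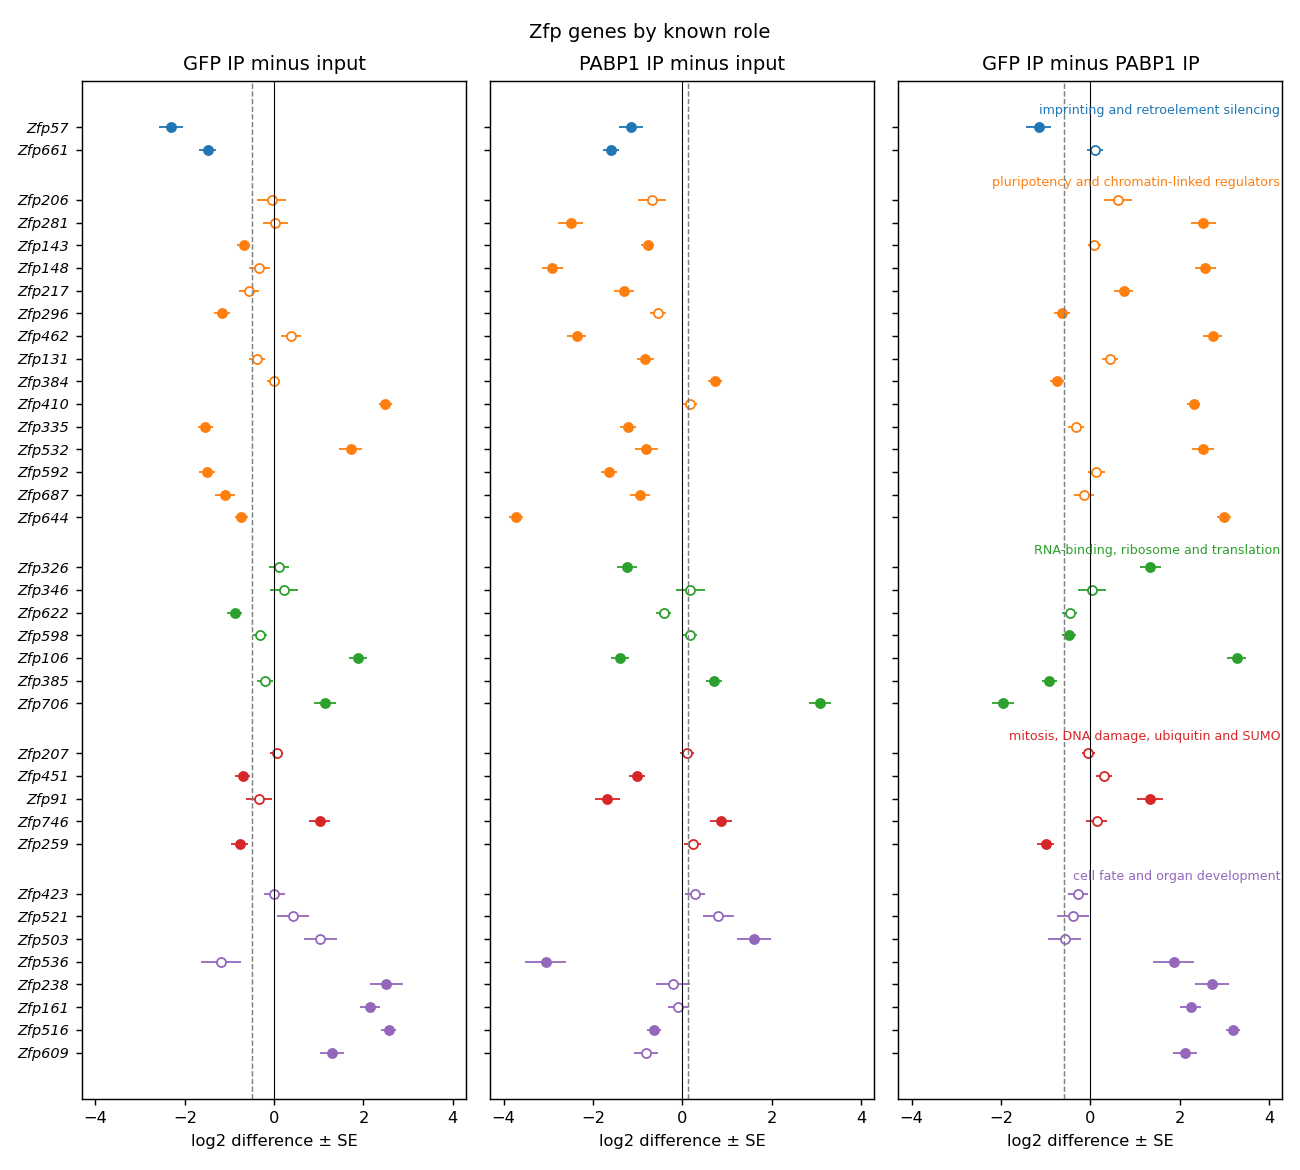
Log2 difference ± standard error (horizontal axis) of the 37 measured Zfp genes of 5 role lists in the 3 comparisons. Filled points passed an adjusted p of 0.05 and open points did not, and the dashed line marks the median of all genes. The pluripotency and chromatin list shows 11 filled points below 0 for PABP1 IP minus input, most of which turn positive with spike-in scaling, and the cell fate list shows 5 above 0 for GFP IP minus PABP1 IP.

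Among the RNA-binding and translation members, 7 of 10 were measured, with 2 higher and 1 lower than input in the GFP IP and 2 and 2 in the PABP1 IP. These are 28.6% and 14.3%, then 28.6% each, beside 18.5% and 36.6%, then 30.0% and 23.8% of all genes. Their medians were 0.11 and 0.17, beside -0.50 and 0.12 for all genes. Between the IPs 2 were higher and 3 lower in the GFP IP, 28.6% and 42.9% beside 22.3% and 41.3%, with Zfp106 and Zfp706 at the ends of the range. Zfp326, a subunit of the DBIRD complex that couples elongation to splicing, was lower in the PABP1 IP than in input by a difference of -1.23 ± 0.23 (adjusted p = 0.00805, lost without input replicate 2 at 0.0568), and stood 0.11 ± 0.23 from input in the GFP IP (adjusted p = 0.686). Its other 2 probes disagreed in the GFP IP, at 1.89 and -2.0. Zfp622, a maturation factor of the large ribosomal subunit, was lower in the GFP IP than in input by a difference of -0.88 ± 0.16 (adjusted p = 0.00871, lost without input replicate 1 at 0.073). Zfp598, the ubiquitin ligase that senses collided ribosomes, was near input in both IPs (-0.31 ± 0.16 and 0.17 ± 0.16, neither past the threshold), as was Zfp346, a double-stranded RNA-binding protein (0.23 ± 0.32 and 0.18 ± 0.32). Zfp385 was 0.71 ± 0.17 higher in the PABP1 IP (adjusted p = 0.0182), a call lost without either input array or PABP1 IP replicate 1 (0.0695 to 0.12).

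In the list of mitosis, ubiquitin and SUMO genes, 5 of 7 were measured, with 1 higher and 2 lower than input in each IP and 1 each way between the IPs. These are 20.0% and 40.0%, then 20.0% each, beside 18.5% and 36.6% of all genes in the GFP IP, 30.0% and 23.8% in the PABP1 IP, and 22.3% and 41.3% between the IPs. Zfp207, the spindle assembly factor BuGZ, varied least of the 5: 3.61 and 3.50 in input, 3.69 and 3.63 in the PABP1 IP, and 3.61 and 3.62 in the GFP IP. None of its 3 differences exceeded 0.11 in size, and its other probe gave 0.06, 0.10 and -0.04. Zfp91, a ubiquitin ligase of the noncanonical NF-kappaB pathway, was at 2.30 and 2.18 in input, 0.82 and 0.31 in the PABP1 IP (-1.68 ± 0.29, adjusted p = 0.00611), and 1.60 and 2.21 in the GFP IP. Zfp259, now Zpr1, was lower in the GFP IP than in the PABP1 IP by a difference of -1.0 ± 0.19 (adjusted p = 0.00665). Zfp451, a SUMO ligase, was lower than input in the PABP1 IP (-1.01 ± 0.18, adjusted p = 0.0066), a call lost without input replicate 2. The 2 genes lower than input in the GFP IP were Zfp259 and Zfp451. There the Zfp259 call was lost without any 1 of the 4 arrays of that comparison. The Zfp451 call was lost without either input array or GFP IP replicate 1. Other probes gave -0.72 for Zfp259 in the GFP IP against input, and 0.12 and 2.70 for Zfp451. Zfp746, the Parkin substrate PARIS, was higher than input in both IPs (1.02 ± 0.24 in the GFP IP and 0.88 ± 0.24 in the PABP1 IP), but the GFP call was lost without either input array or GFP IP replicate 1, and the PABP1 call without any 1 of its 4 arrays (adjusted p 0.0582 to 0.134).

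Of 13 listed cell fate and organ development genes, 8 were measured, with 4 higher and 0 lower in the GFP IP than in input and a median of 1.16 beside -0.50 for all genes. These are 50% and 0.0%, beside 18.5% and 36.6% of all genes. The 4 were Zfp516, Zfp238, Zfp161 and Zfp609. Zfp161, now Zbtb14, was at -0.78 and -0.79 in input, -0.67 and -1.10 in the PABP1 IP, and 1.16 and 1.55 in the GFP IP (2.15 ± 0.23, adjusted p = 0.00236). Zfp609 was at -1.28 and -1.37 in input, -2.49 and -1.79 in the PABP1 IP, and 0.07 and -0.13 in the GFP IP (1.30 ± 0.27, adjusted p = 0.0122). The Zfp609 call was lost without either input array or GFP IP replicate 1 (0.0553 to 0.0652), and its other probe gave -0.78.

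This list had 1 higher and 2 lower than input in the PABP1 IP, 12.5% and 25.0% beside 30.0% and 23.8% of all genes. Between the IPs 5 were higher and 0 lower in the GFP IP, 62.5% and 0.0% beside 22.3% and 41.3%. Zfp536, not well above background on either PABP1 array, was the 5th gene of the last count, at least 3.61-fold higher in the GFP IP than in the PABP1 IP (adjusted p = 0.0164), a call lost without PABP1 IP replicate 2 or GFP IP replicate 2 (0.0552 to 0.0627). Zfp423 and Zfp521, related regulators of fat and neural precursors, were dim, each well above background on 3 of 6 arrays, and did not pass in any comparison. The lower PABP1 call of Zfp516 (-0.63 ± 0.16, adjusted p = 0.0209) was lost without any 1 of the 4 arrays of that comparison (0.052 to 0.135). With spike-in scaling the PABP1 values of Zfp516, Zfp238, Zfp161 and Zfp609 were 1.47 to 2.18.

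The partners that KRAB zinc finger proteins recruit were measured for 22 of 24 listed genes. Against input, 4 were higher and 11 lower in the PABP1 IP, 18.2% and 50% beside 30.0% and 23.8% of all genes, with a median of -0.52 beside 0.12. In the GFP IP 8 were higher and 6 lower, 36.4% and 27.3% beside 18.5% and 36.6%, with a median of 0.11 beside -0.50. Between the IPs 12 were higher and 4 lower in the GFP IP, 54.5% and 18.2% beside 22.3% and 41.3% (median 0.94 beside -0.58). Trim28, the KRAB-binding hub, did not pass in any comparison: 0.04 ± 0.15 in the GFP IP, -0.07 ± 0.15 in the PABP1 IP and 0.11 ± 0.15 between them, and spike-in scaling put the last 2 at 2.21 and -1.16. Setdb1 was lower in the PABP1 IP than in input by a difference of -1.12 ± 0.18 (adjusted p = 0.0053), and its cofactor Atf7ip by -2.22 ± 0.16 (adjusted p = 0.00091). Dnmt1, the maintenance DNA methyltransferase, was 1.50 ± 0.19 above input in the GFP IP (adjusted p = 0.0032) and lower in the PABP1 IP (-1.85 ± 0.19, adjusted p = 0.00151), and Morc3 was 2.58 ± 0.17 higher in the GFP IP (adjusted p = 0.00144). With spike-in scaling the PABP1 values of Setdb1, Atf7ip and Dnmt1 turned to 1.16, 0.0548 and 0.42.

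Among zinc finger genes named otherwise, the median difference between PABP1 IP and input was -0.56 for 26 Zbtb genes (2 higher, 10 lower). For 13 Klf genes it was -0.41 (4 higher, 4 lower), and for 4 genes named Znf or Znrf it was 0.25 (1 higher, 1 lower). It was -0.49 for the 187 Zfp genes and 0.12 for all genes, of which 30.0% were higher and 23.8% lower. In the GFP IP the medians were -0.0681 for Zbtb genes (6 higher, 9 lower) and 0.41 for Klf genes (5 higher, 0 lower). That of the Znf and Znrf genes was 0.89 (2 higher, 0 lower). The Zfp median there was -0.51 and that of all genes -0.50 (18.5% higher, 36.6% lower). Whether these sets differ from the Zfp genes was not tested.

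RefSeq records (assembly GRCm38.p6) matched all 187 genes: 150 by accession, 30 by symbol and 7 by synonym. Of them 160 are still named Zfp, 16 are now Zbtb, Zscan or Zkscan genes, and 11 have other names. The 16 had 0 higher and 6 lower in the PABP1 IP than in input, and the 11 had 3 and 4, beside 22 and 66 of the 160. In shares these are 0.0% and 37.5%, 27.3% and 36.4%, and 13.8% and 41.2%, where 30.0% and 23.8% of all genes were called. Many Zfp genes lie in clusters, and 71 had a next neighbour with a RefSeq symbol of Zfp and a number. Members with another symbol now did not count as such neighbours, so the other 116 include genes beside a renamed member. Zfp655, beside Zfp95 (now Zkscan5), is an example. Of these 71, 12 were higher and 22 lower in the GFP IP than in the PABP1 IP (16.9% and 31.0%), and of the other 116, 44 were higher and 24 lower (37.9% and 20.7%), where 22.3% and 41.3% of all genes were. Against input in the GFP IP the shares were 12.7% higher and 43.7% lower with a Zfp neighbour, and 23.3% and 33.6% without, beside 18.5% and 36.6% of all genes. Clustered Zfp genes are often similar in sequence. Whether a probe also binds a relative's transcript was not tested, since the files used here hold no probe sequences.

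Probes of 1 gene often differed, which limits what a single value says of a gene. Of the 187 genes, 72 had 97 other kept probes, and the median distance between such a probe and the brightest was 0.83 in the GFP IP against input, 0.69 in the PABP1 IP against input and 0.70 between the IPs. Among called genes with other probes, 11 of 43, 14 of 46 and 11 of 52 had at least 1 probe of opposite sign. Probes kept one direction at Zfp106, Zfp278, Zfp364, Zfp422, Zfp516 and Zfp251 in the GFP IP against input. In the PABP1 IP against input the direction was kept at Zfp706, Zfp462, Zfp291 and Zfp335.

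**Figure D4:**
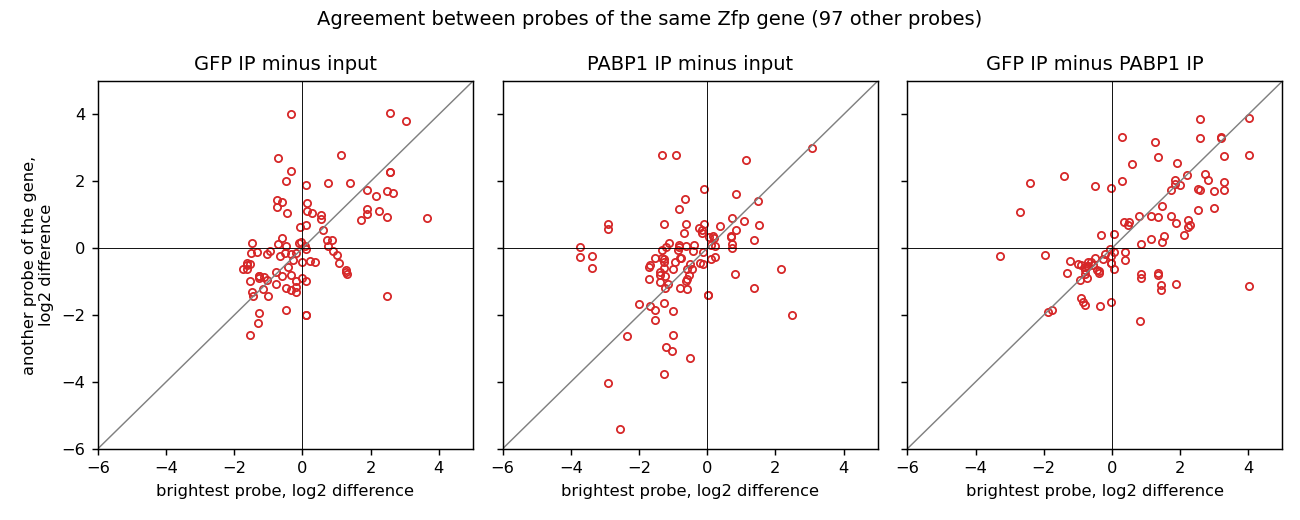
Log2 difference of 97 other kept probes (vertical axis) against that of the brightest probe of the same Zfp gene (horizontal axis) in the 3 comparisons, with the line of equality in grey. Points at the upper left and lower right are probes of opposite sign, which 11 of 43, 14 of 46 and 11 of 52 called genes with other probes have.

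The authors' deposited table of group means was matched by sequence identifier, leaving out identifiers listed more than once. It covered 89 of the 150 members detected on all 6 arrays. Of those called here, 49 of 56 had the same sign in the authors' deposited table for GFP IP over input, 40 of 49 for PABP1 IP over input and 49 of 50 for GFP IP over PABP1 IP. The median log2 ratios in the authors' deposited table were -0.0479, -0.19 and 0.11. They were made by the authors from the same arrays and are no separate measurement.

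At the edge of the rule, Zfp287, Zfp295 and Zfp518 were well above background on exactly 2 arrays, both of the GFP IP. Just outside were Zfp748, Zfp445, Zfp192 and Zfp398, each well above background on 2 arrays of different groups. Of the 51 names not kept, 36 were well above background on no array, 11 on 1 array and 4 on 2 arrays. Zfp295 stood at -2.27 and -2.65 in the GFP IP, and Zfp748 at -2.50 and -2.52 in input, so both sides of the edge lay in the same range of dim signals.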

How the data were processed

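The scanner files hold probe intensity values that the authors deposited; per the file headers they came from Agilent Feature Extraction 9.1.3.1, which subtracts background. The authors' deposited table gives mean signal values and their errors per group, background-subtracted and normalized to the median in GeneSifter, per the file headers, with a quality score that the authors deposited and that was used in no test.

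The log2 of each processed intensity minus the array's 75th percentile was analysed. Probes flagged well above background on both arrays of a group were kept, outlier and control spots were left out, and the brightest probe stood for each gene name. All 14993 genes of the 6 arrays were fitted with limma 3.58.1 in R 4.3.3 by group alone (lmFit, eBayes, 3 residual degrees of freedom, two-sided, Benjamini-Hochberg adjustment). The number of arrays limits the precision: tested on simulated data, the GFP IP and input fit recovered 77 of 100 genes with a true log2 change of 2 and 6 of 100 with a change of 1, beside 5 false calls. In the PABP1 IP and input fit these were 78, 0 and 3, and in the fit between the IPs 80, 3 and 7. In each simulation only 100 genes of each size were changed among 14993, whereas 53.9% to 63.6% of genes were called in the data. Recovery after Benjamini-Hochberg adjustment depends on that share, so these counts do not give the recovery in the real comparisons.

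The genes named are the members of the role lists and, among called members with groups that do not overlap and the higher group well above background, the 10 with the largest rise and the 10 with the largest fall in each comparison. Members and lists were chosen with earlier results of these data known. Alternatives were normexp (offset 50), quantile normalization, median and spike-in scaling, other probe filters, the mean of probes, slide and replicate blocks, slide 1 alone, and each array left out.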

Additional observations from a re-analysis of the deposited data

How the results depend on the processing

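Of 125 named values past the threshold, 86 stayed past it in the same direction under every alternative other than spike-in scaling and scaling to the median of all probes. In the GFP IP against input, the Zfp genes called lower numbered 70, but 21 with median scaling and 0 with spike-in scaling. All genes called lower there numbered 1737 with median scaling, 326 with spike-in scaling and 12361 with no filter on dim probes. The distance of the Zfp median from all genes in that comparison was -0.0505 with quantile normalization, 0.42 with no filter, -0.0546 with the mean of a gene's probes and -0.0527 with the slide as a block. In the PABP1 IP against input, Zfp genes called higher numbered 153 with spike-in scaling and 13 with no filter, and those called lower 46 with median scaling and 3 with spike-in scaling; spike-in scaling called 12765 of all genes higher and 222 lower. The distance there was -0.26 with normexp, -0.0537 with no filter, -0.53 with the mean of probes, -0.70 within slide 1 and -0.69 with the slide as a block. Between the IPs, Zfp genes called higher numbered 16 with spike-in scaling, and those called lower 22 with median scaling, 106 with spike-in scaling and 29 with no filter; spike-in scaling called 735 of all genes higher and 10204 lower, and the distance was 0.24 with normexp and 0.18 with no filter. The cause of these changes was not tested.

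With spike-in scaling the sign turned in the GFP IP against input for Zfp143 (0.32), Zfp259 (0.24), Zfp451 (0.30), Zfp622 (0.12), Zfp644 (0.27). With spike-in scaling the sign turned in the PABP1 IP against input for Atf7ip (0.0548), Dazl (0.46), Dnmt1 (0.42), Morc3 (1.84), Pabpc1 (2.13), Setdb1 (1.16), Trim28 (2.21), Zfp106 (0.88), Zfp131 (1.45), Zfp143 (1.50), Zfp161 (2.18), Zfp206 (1.60), Zfp217 (0.97), Zfp238 (2.06), Zfp296 (1.74), Zfp326 (1.05), Zfp335 (1.06), Zfp451 (1.27), Zfp516 (1.64), Zfp532 (1.47), Zfp57 (1.12), Zfp592 (0.63), Zfp609 (1.47), Zfp622 (1.86), Zfp661 (0.69), Zfp687 (1.33), Zfp91 (0.60). With spike-in scaling the sign turned in the GFP IP against the PABP1 IP for Setdb1 (-0.60), Trim28 (-1.16), Zfp143 (-1.18), Zfp217 (-0.53), Zfp346 (-1.23), Zfp592 (-1.14), Zfp661 (-1.17), Zfp746 (-1.13). It turned with mean of a gene's probes for Atf7ip (-0.91, the GFP IP against input), Zfp148 (1.46, the GFP IP against input), Zfp451 (0.70, the GFP IP against input), Zfp644 (0.64, the GFP IP against input). It turned with normexp background for Zfp423 (-0.71, the GFP IP against input), Zfp503 (-0.52, the GFP IP against input), Zfp503 (-0.17, the PABP1 IP against input), Zfp521 (-0.72, the GFP IP against input). It turned with quantile normalization for Zfp296 (0.0224, the GFP IP against the PABP1 IP), Zfp598 (0.0871, the GFP IP against the PABP1 IP). It turned with slide as a block for Pabpc1 (0.62, the PABP1 IP against input). A value that passed the threshold neither in the reported fit nor in the alternative has no settled direction.

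Leaving out each array in turn gave, in the GFP IP against input, 26 to 36 higher and 33 to 70 lower Zfp genes, 1656 to 2774 higher and 2470 to 5589 lower of all genes, and a distance of -0.0104 to 0.0447. In the PABP1 IP against input it gave 11 to 25 and 36 to 73 Zfp genes, 2818 to 4476 and 2185 to 3506 of all genes, and a distance of -0.70 to -0.54. Between the IPs it gave 53 to 55 and 36 to 40 Zfp genes, 2876 to 3033 and 5022 to 6019 of all genes, and a distance of 0.41 to 0.72.

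Replicate numbers did not pair the arrays: deviations of same-numbered arrays correlated at 0.20 between input and PABP1 IP, -0.0587 between input and GFP IP, and -0.65 between the IPs, whose crossed pairing follows the slides. With the replicate number as a block, 33 Zfp genes were higher and 63 lower in the GFP IP than in input, 20 and 68 in the PABP1 IP, and 54 and 38 between the IPs. In shares these are 17.6% and 33.7%, 10.7% and 36.4%, and 28.9% and 20.3%, beside 16.4% and 30.6%, 26.5% and 20.9%, and 20.4% and 36.9% of all genes. With the slide as a block the counts were 40 and 78, 28 and 81, and 63 and 60. Their shares were 21.4% and 41.7%, 15.0% and 43.3%, and 33.7% and 32.1%, beside 20.3% and 41.6%, 36.0% and 26.7%, and 25.5% and 51.3% of all genes. Signal over background limits the 37 Zfp genes that were well above it on fewer than 6 arrays.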
